A study of Mus musculus with 6 samples.

Results

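The clustered protocadherin genes are 57 protein-coding genes on mouse chromosome 18 that lie side by side in 3 families. They were selected by symbol from 21887 protein-coding genes, with 14 alpha genes (Pcdha), 22 beta genes (Pcdhb) and 21 gamma genes (Pcdhga, Pcdhgb and Pcdhgc). On mm10 the cluster runs from 36930285 to 37841873, a length of 0.912 Mb. Peaks were read there and in 100 kb either side. Pcdhgb8, which is annotated as a transcribed pseudogene, was not a member. Accessible DNA was mapped by ATAC-seq, in which the Tn5 transposase inserts sequencing adapters into open chromatin. The cells were CGR8 mouse embryonic stem cells, grown without treatment in N2 and B27 medium supplemented with leukemia inhibitory factor and inhibitors of MEK and GSK3. The series design text names the line as CGR8 Cdt1-MD and says nothing more of the modification. Each of the 3 groups, mito, LM and eG1-1, had 2 lists of peaks and shared all of these conditions. The labels do not spell these names out, and from the title of the series they were taken to stand for mitosis (mito), late mitosis (LM) and early G1 (eG1-1). Each LM list carries Telo in the names of its peaks, and cell numbers differ between the titles, a peak name and the protocol, so what LM covers is uncertain. Whether the 2 replicates of a stage were separate cultures is not given in the labels, and every p-value therefore rests on list-to-list spread that may be technical.

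Clustered protocadherins are cell surface adhesion proteins that give single neurons different identities. An alpha or gamma transcript joins 1 variable first exon, each with its own promoter, to constant exons shared by the family, whereas each beta gene is a single exon. In neurons a few of the alternately used promoters are active per cell, and the C-type genes at the ends of the alpha and gamma families are used more widely. CTCF and cohesin bind at most of these promoters and at distant enhancers, and DNA methylation holds unused promoters silent. Most promoters share a conserved element that CTCF binds, which is missing at Pcdhac2, Pcdhb1, Pcdhgc4 and Pcdhgc5. In the gene table the ends of the alpha genes lie within 1240 bp of each other and those of the gamma genes within 10 bp, while all starts differ. A start below is the lower annotated coordinate of a gene, and a start peak is a peak that overlaps the 1 kb on either side of it.

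The lists differed in length, and read depth is unknown. They held 24598 and 30446 peaks in mito, then 23867 and 20639 in LM and 32101 and 48396 in eG1-1. The peak names carry 1 code in all replicate 1 lists and another in all replicate 2 lists. This code was taken to be a sequencing run, which the sample titles do not say. eG1-1 replicate 2 stood apart by its length, and values without it are given where they differ most. Each peak carries the authors' own score, on a scale that is not known to be comparable between lists. Scores are printed as given, and a percentile is the rank of a score among the peaks of the same list. A missing peak means that none was called. The protocadherin genes are close paralogs, and how reads that match several copies were handled is not given in the sources used here. Of 8 embryonic stem cell marker genes, 7 and 5 had a peak at either end in mito, then 3 and 2 in LM and 3 and 6 in eG1-1. For 6 neuron markers the counts were 3 and 2, 4 and 3, and 3 and 3, and for 5 fibroblast markers 2 and 3, 3 and 3, and 3 and 4. As shares of each marker list, the stem cell markers stood highest in both mito lists and lowest in both LM lists. In eG1-1 they stood lowest in replicate 1 and between the others in replicate 2. Peaks at gene ends therefore did not set the labelled cell type apart from the others at every stage.

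Peaks in the cluster were mostly of middling or low score, and the eG1-1 lists held the most. With 100 kb either side, mito had 24 and 37 peaks, LM 21 and 20, and eG1-1 35 and 65. Within the cluster, from the first to the last gene, there were 20 and 32 in mito, then 17 and 19 in LM and 32 and 57 in eG1-1. The eG1-1 lists thus equalled or exceeded each of the others, with eG1-1 replicate 1 level with mito replicate 2. The slope over the 3 stages was 9.25 peaks per step and did not pass the exact two-sided permutation test over 90 assignments (p = 0.311, adjusted over 8 trends p = 0.467, smallest p possible 0.0222). In this slope the LM lists carry no weight. Within the first run eG1-1 had 12 more peaks than mito, and within the other run 25 more. Without eG1-1 replicate 2 the slope was 1.43 peaks, and without mito replicate 2 it was 14.3. It was 4 at a score of at least 50. With the lists cut to the 20639 strongest peaks it was 0.25 (exact p = 0.956), from 20 and 22 peaks in mito, 15 and 19 for LM and 18 and 25 for eG1-1.

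Per 10000 peaks of a list, the cluster held 8.13 and 10.5 in mito, then 7.12 and 9.21 in LM and 9.97 and 11.8 in eG1-1. These groups overlapped between mito and eG1-1, and the slope, 0.776 per step, did not pass (exact permutation p = 0.444). It was 0.113 without eG1-1 replicate 2, 1.56 without mito replicate 2 and 0.121 at equal list length. The median cluster peak stood at percentiles 33.5 and 44.6 of its list in mito, then 33.9 and 52.8 in LM and 44.6 and 52.0 in eG1-1 (slope 4.62, exact permutation p = 0.333). Peaks among the top 10% of their list numbered 0 and 2 in mito, then 0 and 0 in LM and 0 and 1 in eG1-1.

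**Figure D1:**
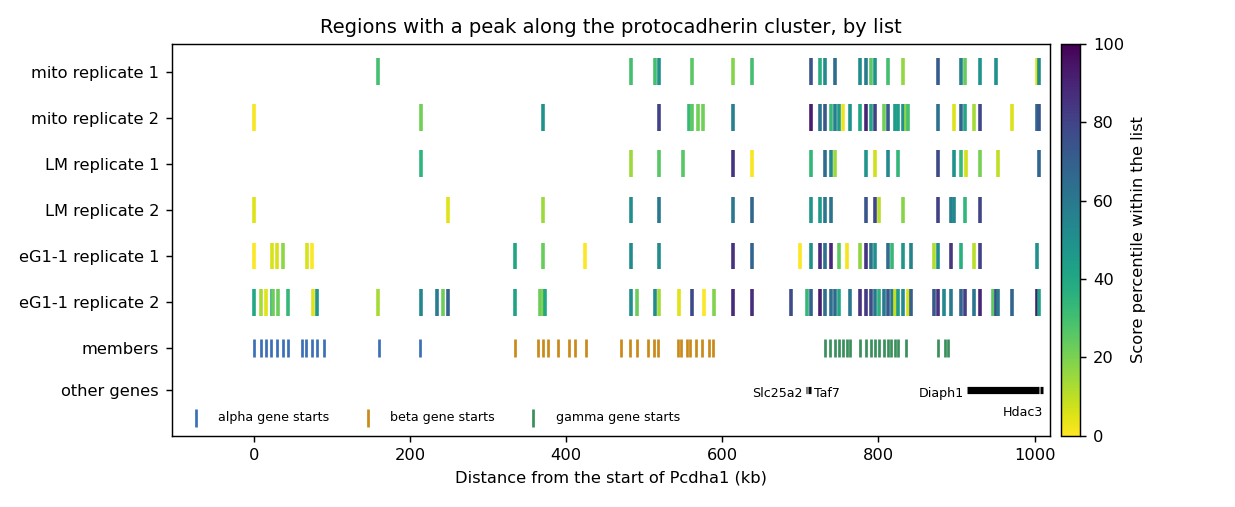
Regions with a peak in each list along the cluster and its flanks, by distance in kb from the start of Pcdha1, coloured by score percentile within the list. Ticks in the lower rows mark the starts of the 57 members and bars the other protein-coding genes, without the read-through genes; the 100 kb before Pcdha1 hold no peak, and peaks gather at the gamma genes.

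The cluster was more densely covered than the rest of the genome in 6 of 6 lists. It held 21.9 and 35.1 peaks per Mb in mito, then 18.6 and 20.8 in LM and 35.1 and 62.5 in eG1-1, while the rest of the genome held 9.13 and 11.3, 8.86 and 7.66, and 11.9 and 17.96 in the same lists. The mean difference was 21.2 ± 12.8 peaks per Mb (SD, n = 6 lists; exact sign-flip permutation p = 0.0312, the smallest the lists allow, adjusted over 2 comparisons p = 0.0625). It was 10.4 at a score of at least 50 and 14.1 at equal list length. The cluster is also dense in genes, with 62.5 members per Mb. The 4 Hox clusters, another tandem family, hold 79.3 genes per Mb and had 48.8 and 65.0 peaks per Mb in mito, then 54.9 and 10.2 in LM and 26.4 and 56.9 in eG1-1. The difference from the Hox clusters was −11.3 ± 21.8 peaks per Mb (SD, n = 6 lists; exact permutation p = 0.25), with the protocadherin cluster higher in 3 of 6 lists. It was −1.95 at equal list length and 1.55 at a score of at least 50. With 1 list left out it ranged from −15.7, without LM replicate 2, to −6.35, without LM replicate 1.

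Over the 6 lists, overlapping peaks merged into 71 regions within the cluster and 80 with the flanks. Of the 71, 7 were held by all lists, a share of 9.86% beside 15.5% of all 65324 regions of the genome, and 32 by a single list, of which 18 were in eG1-1 replicate 2. The 3 families differed in this. Of the regions in the alpha span 14 of 19 were held by 1 list, 9 of them by eG1-1 replicate 2, in the beta span 11 of 17, and in the gamma span 4 of 28. Genome-wide 42.4% of regions were held by 1 list. The 100 kb before Pcdha1, which hold no protein-coding gene, had 0 peaks in each of the 6 lists, and so had the gap between the alpha and beta families.

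Start peaks were most frequent at gamma genes. Of the 21 gamma genes, 20 had a start peak in 1 or more lists, against 12 of 14 alpha genes and 4 of 22 beta genes. Counts per list were 8 and 16 gamma genes in mito, then 8 and 6 in LM and 11 and 17 in eG1-1. Alpha genes numbered 1 and 2 in mito, then 1 and 1 in LM and 6 and 10 in eG1-1. Beta genes numbered 0 and 1, 0 and 1, and 3 and 3 in the same groups. Without eG1-1 replicate 2 the totals were 19 gamma, 3 beta and 8 alpha genes.

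In shares of each family, start peaks stood at 57.1% ± 26.9 of gamma genes in mito, then 33.3% ± 6.73 in LM and finally 66.7% ± 20.2 in eG1-1 (SD over 2 lists, n = 2). Alpha genes stood at 10.7% ± 5.05, 7.14% ± 0 and 57.1% ± 20.2, and beta genes at 2.27% ± 3.21, 2.27% ± 3.21 and 13.6% ± 0. For comparison, 48.8% ± 2.47, 41.8% ± 8.55 and 46.8% ± 6.84 of 17492 protein-coding genes on other chromosomes had a peak at their transcription start. Gamma genes lay above these genes in 3 lists and below them in 3. Alpha genes lay below them in the mito and LM lists and above them in both eG1-1 lists, with 42.9% and 71.4% against 41.9% and 51.6%. Beta genes lay below them in 6 of 6 lists.

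The families were compared within each list, by tests added after the counts had been seen. Gamma exceeded alpha by 27.4 ± 19.4 percentage points and beta by 46.3 ± 18.8 (SD, n = 6 lists), each in 6 of 6 lists. Gamma regions were also denser per length, by 64.04 ± 22.2 peaks per Mb over alpha and 59.99 ± 22.9 over beta. Each of these 4 differences had an exact sign-flip permutation p of 0.0312, the smallest possible, and an adjusted p of 0.0375 over 6 comparisons. Where a difference had the same sign in every list, its p was fixed once the counts had been seen. Such a p describes agreement between lists that measure the same genes. The spans also differ in gene density, with 21 gamma genes in 180 kb, 14 alpha genes in 259 kb and 22 beta genes in 256 kb. Of 28 gamma regions, 20 were centred within 1 kb of a start. Density per length thus counts many start peaks again, and density away from starts was not compared. The beta minus alpha difference in start peaks was −18.9 ± 21.2 percentage points (exact permutation p = 0.0312, adjusted p = 0.0375), but with the 20639 strongest peaks of each list it was −1.30 points (exact p = 0.562). In peaks per Mb the beta minus alpha difference was 4.05 ± 10.0 (exact permutation p = 0.312).

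**Figure D2:**
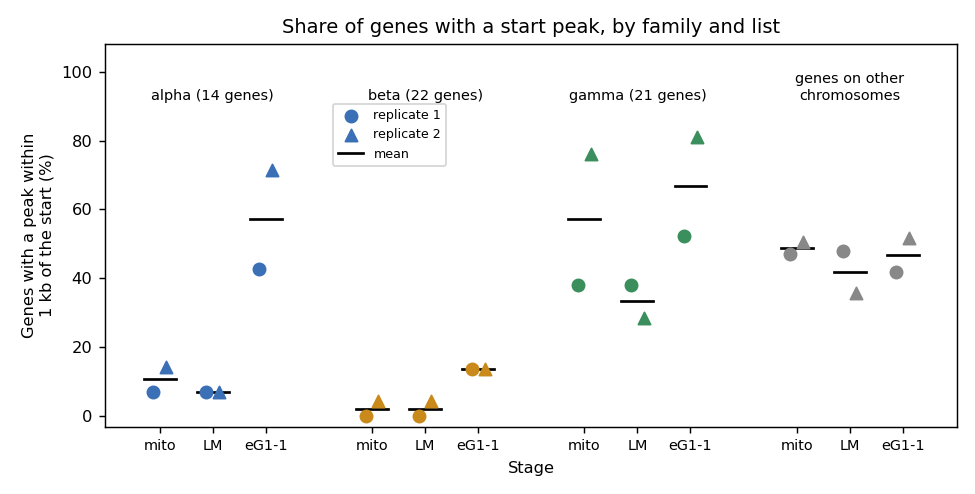
Share of genes with a peak within 1 kb of the start (%, y axis) at the 3 stages, for the alpha, beta and gamma families and for 17492 genes on other chromosomes; points are lists and bars the mean of 2 lists. Alpha genes stand at 42.9% and 71.4% in the eG1-1 lists and at 14.3% or less in the 4 other lists.

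At alpha genes, and with smaller counts at beta genes, both eG1-1 lists held more start peaks than each of the other 4 lists. Of 12 alpha genes with a start peak, 9 had it in eG1-1 lists alone, beside 3 of 20 gamma and 3 of 4 beta genes. Of the 9, 6 rested on 1 list, 4 of them on eG1-1 replicate 2, the longest list. That list alone held 14257 of all 65324 regions. The share of all genes was not counted by this rule, so whether these counts are particular to alpha genes was not tested. Pcdha4 scored 20 and 45 in the eG1-1 lists, Pcdha5 20 and 34, and Pcdha10 13 and 21, with no peak in mito or LM. At Pcdha5 and Pcdha10 the peaks of the 2 lists lay side by side without overlapping. Pcdha6 (27) and Pcdha9 (20) had a peak in eG1-1 replicate 1, and Pcdha2 (28), Pcdha3 (21), Pcdha7 (42) and Pcdha11 (54) in eG1-1 replicate 2. Pcdha8 and Pcdha12 had none in any list. Pcdha1, the first gene of the cluster, scored 17 in mito replicate 2, 19 in LM replicate 2 and 13 and 48 in eG1-1. Its LM peak, from 36930744 to 36930976, lay beside the region of the mito and eG1-1 peaks without overlapping it.

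These alpha peaks were weak. The 21 start peaks of alpha genes had a median percentile of 13.3 within their lists, with a highest of 53.3, whereas the 66 of gamma genes had a median of 55.4 and a highest of 90.03. With the 20639 strongest peaks of each list, alpha start peaks numbered 1 and 0 in mito, then 1 and 1 in LM and 0 and 0 in eG1-1. At a score of at least 50 they numbered 0 and 0, 0 and 0, and 0 and 2. At equal list length the eG1-1 lists thus held no alpha start peak, and at the higher score only eG1-1 replicate 2 did. The cut to equal length takes the most peaks from eG1-1 replicate 2, the longest list, and none from LM replicate 2, the shortest. Of the lists nearest in length, eG1-1 replicate 1, with 32101 peaks, had 6 alpha and 11 gamma start peaks, and mito replicate 2, with 30446 peaks from the other run, had 2 and 16. The slope of peaks in the alpha part was 4.5 per step (exact permutation p = 0.111, adjusted over 8 trends p = 0.467), 1.93 without eG1-1 replicate 2 and 0.25 at equal list length (exact p = 0.778).

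**Figure D3:**
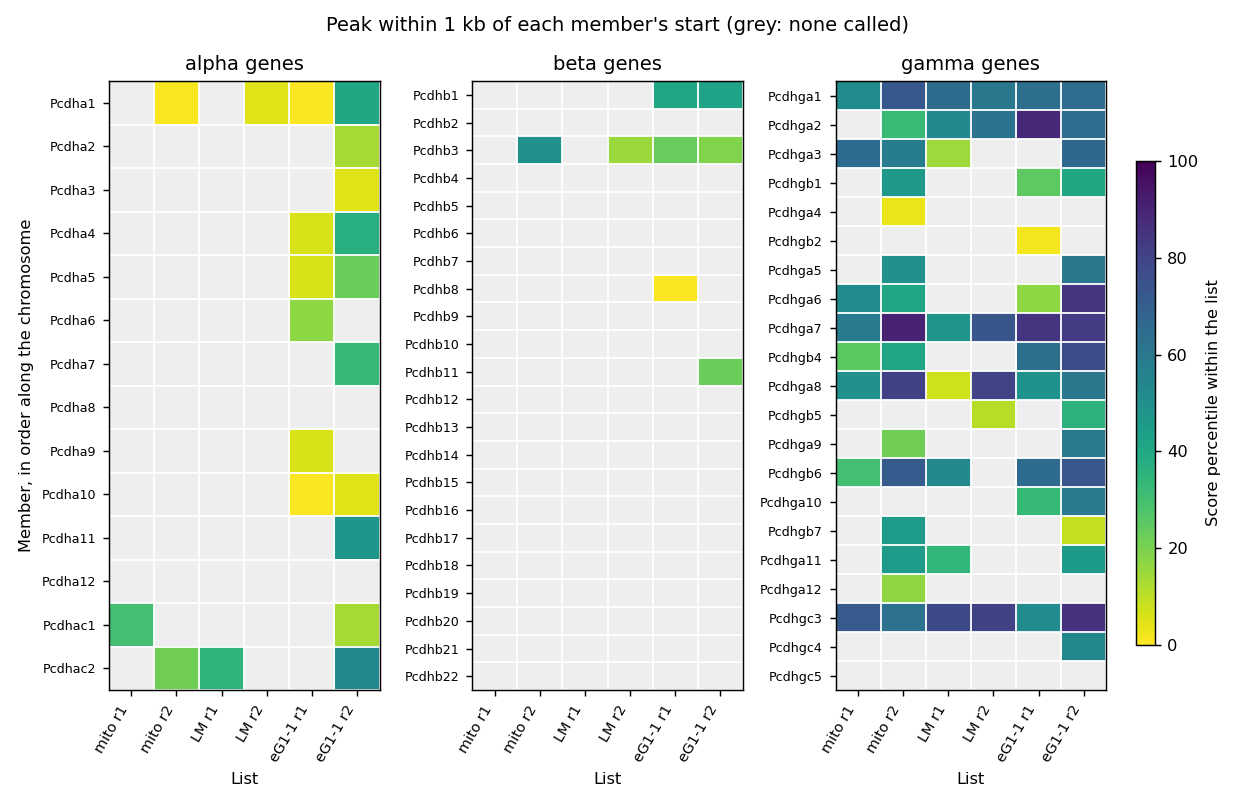
Peak within 1 kb of the start of each of the 57 members (rows, in order along the chromosome) in each of the 6 lists (columns, r1 and r2 for the replicates), coloured by score percentile within the list, grey where none was called. Pcdhga1, Pcdhga7, Pcdhga8 and Pcdhgc3 have a peak in all 6 lists, while alpha peaks gather in the eG1-1 columns at low percentiles.

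The C-type genes did not move as 1 group. Pcdhgc3, the first C-type gene of the gamma family, scored 81 and 75 in mito, then 94 and 88 in LM and 50 and 136 in eG1-1, and its region was centred 3.5 bp from the annotated start. It thus had a peak at every stage, with LM between the eG1-1 lists. Pcdhac1 scored 39 in mito replicate 1 and 28 in eG1-1 replicate 2. Pcdhac2 scored 36 in mito replicate 2, 42 in LM replicate 1 and 60 in eG1-1 replicate 2. Pcdhgc4 had a single peak, of 60 in eG1-1 replicate 2, centred at −698.5 bp from its start, and Pcdhgc5 had none within 1 kb. Of the 4 genes known to lack the conserved element, 3 had a start peak in 1 or more lists, beside 36 of all 57 members. Besides Pcdhac2 and Pcdhgc4 this was Pcdhb1, which scored 42 and 49 in the eG1-1 lists.

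Among the alternately used gamma genes, 3 had a start peak in all 6 lists. Pcdhga1, the first gamma gene, scored 56 and 92 in mito, then 69 and 56 in LM and 61 and 75 in eG1-1. Pcdhga7 scored 63 and 150, 51 and 73, and 103 and 122 in the same order, and Pcdhga8 54 and 112, 22 and 85, and 48 and 69. The values of the stages overlapped at Pcdhga1 and Pcdhga8, and at Pcdhga7 LM was below eG1-1. Pcdhga2 lacked a peak in mito replicate 1 and scored 44 in mito replicate 2, 56 and 58 in LM, and 120 and 75 in eG1-1. Pcdhgb6 lacked one in LM replicate 2 and scored 39 and 89 in mito, 56 in LM replicate 1, and 64 and 92 in eG1-1.

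Other gamma genes lacked a peak in 1 or both LM lists. Pcdhga6 scored 56 and 51 in mito and 27 and 132 in eG1-1, and Pcdhgb4 36 and 51 in mito and 61 and 103 in eG1-1, with no peak in either LM list. Pcdhgb1 scored 56 in mito replicate 2 and 32 and 48 in eG1-1. Pcdhga3 had 71 and 68 in mito, 28 in LM replicate 1 and 79 in eG1-1 replicate 2. Pcdhga11 had 54 in mito replicate 2, 41 in LM replicate 1 and 52 in eG1-1 replicate 2.

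Several gamma genes had a peak in the replicate 2 lists alone. Pcdhga5 scored 59 in mito and 69 in eG1-1, Pcdhga9 36 and 67, and Pcdhgb7 54 and 25, all in replicate 2, and Pcdhgb5 scored 24 in LM and 43 in eG1-1, again in replicate 2. Pcdhga10 scored 36 and 67 in eG1-1. Pcdhga4 (21) and Pcdhga12 (32) had a peak in mito replicate 2 and Pcdhgb2 (15) in eG1-1 replicate 1. The A-type genes stood at 5 and 11 of 12 in mito, then 6 and 4 in LM and 6 and 10 in eG1-1, and the B-type genes at 2 and 4 of 6, 1 and 1, and 4 and 5. The pseudogene Pcdhgb8, in the same row of genes, scored 31 and 59 in mito, 27 in LM replicate 2, and 47 and 58 in eG1-1.

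The beta genes showed another arrangement, with few peaks at starts and more inside the exon. Start peaks were found at 4 of 22 beta genes. Pcdhb3 scored 59 in mito replicate 2, 26 in LM replicate 2, and 31 and 32 in eG1-1, and Pcdhb1 had the 2 eG1-1 peaks given above. Pcdhb8 (13) and Pcdhb11 (34) had 1 peak each, in eG1-1 replicate 1 and 2. In contrast, 12 beta genes held a region inside the gene more than 1 kb from a member start, 13 regions in all. Of these, 5 were in eG1-1 replicate 2 alone, and without that list 8 regions in 8 genes remained. Their centres lay 1672.5 to 2405.5 bp after the start of the gene, with a median of 2016 bp. As a share of gene length the median was 61.1%. Genes with such an inner peak numbered 4 and 5 in mito, then 3 and 2 in LM and 2 and 9 in eG1-1, with no order by stage. A single list held 9 of the 13 regions.

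The inner region of Pcdhb14, on chromosome 18 from 37449452 to 37450099, was in all 6 lists and scored 55 and 111 (mito), 35 and 56 (LM) and 50 and 28 (eG1-1). That of Pcdhb10, from 37413817 to 37414342, scored 39 in mito replicate 1, 28 and 48 in LM, and 50 and 57 in eG1-1. Those of Pcdhb18 (36 and 38 in mito, 105 in eG1-1 replicate 2) and Pcdhb13 (39 in mito replicate 1, 58 in eG1-1 replicate 2) had no peak in LM. Since the beta exons are alike in sequence, an assignment of these peaks to 1 copy rests on the authors' mapping.

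**Figure D4:**
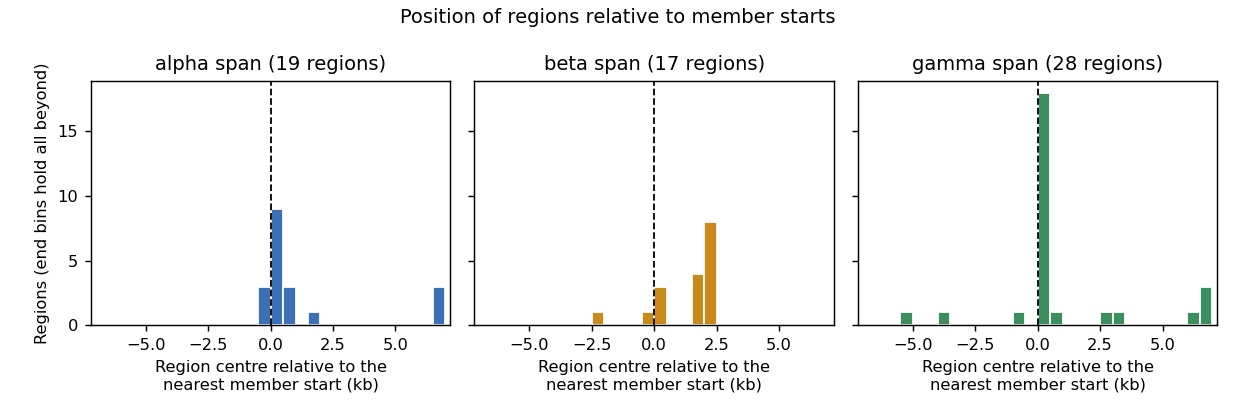
Number of regions (y axis) by the distance in kb of the region's centre from the nearest member start, in bins of 0.5 kb, for the spans of the 3 families; the dashed line marks the start, and the end bins hold all regions beyond. Alpha and gamma regions gather just after starts, and beta regions near 2 kb after them.

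Around starts, regions lay on the gene side of the annotated coordinate. Of 28 regions in the gamma span, 20 were centred within 1 kb of a member start, 19 of them after it, with a median distance of 100 bp. In the alpha span the counts were 15 of 19 regions and 12 after the start, with a median of 219 bp, and in the beta span 4 of 17 and 3. The median peak was 336 to 503 bp wide over the 6 lists, so regions centred this close to a start reach across it or lie just behind it.

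Regions farther than 1 kb from a start numbered 4 in the alpha span, 13 in the beta span and 8 in the gamma span, and others lay in the gap between the beta and gamma families and in Diaph1. In the alpha span, 3 lay 21898.5 to 34862.5 bp after the start of Pcdhac2 and scored 66, 34 and 83 in eG1-1 replicate 2, with 1 other peak, of 19 in LM replicate 2 at the last of them. In the gap, the region from 37543491 to 37544295, 25540 bp after the start of Pcdhb22, was in all 6 lists with scores of 32 and 67 in mito, then 115 and 56 in LM and 107 and 148 in eG1-1. The region from 37568104 to 37568799 scored 39 in mito replicate 1, 15 and 64 in LM, and 68 and 142 in eG1-1. A further region, from 37655309 to 37656182 at −6029.5 bp from the start of Pcdhga1, scored 44 and 74 in mito, 44 in LM replicate 2, and 114 and 177 in eG1-1. In these 3 regions both eG1-1 lists scored above every mito peak called there, on a scale that is not known to be comparable between lists. Their percentiles within the list were 85.7 and 88.0 in eG1-1 and 18.7 and 56.4 in mito for the first, 68.2 and 87.1 in eG1-1 and 30.1 in mito replicate 1 for the second, and 87.4 and 91.7 in eG1-1 and 37.0 and 61.5 in mito for the third. They were named after their values were seen.

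Near the shared 3' end of the gamma genes, a region from 37835385 to 37836725 scored 61 and 84 in mito, 40 in LM replicate 1, and 39 and 81 in eG1-1. Another from 37840317 to 37841347 scored 35 and 51 in mito, 37 in LM replicate 2 and 118 in eG1-1 replicate 2. Behind the cluster, the region from 37859691 to 37860869 within Diaph1, which encodes a formin, was in all 6 lists with 53 and 106 in mito, then 32 and 85 in LM and 93 and 155 in eG1-1.

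Of the other genes of the window, Taf7, Diaph1 and Hdac3 had a peak at an end at every stage. Taf7, a subunit of the general transcription factor TFIID that lies between the beta and gamma families, scored 86 and 162 in mito, then 41 and 46 in LM and 48 and 84 in eG1-1. Slc25a2, a mitochondrial carrier gene beside it, had 1 peak, of 42 in eG1-1 replicate 2. Diaph1 scored 56 and 94 in mito, 73 in LM replicate 1 and 49 in eG1-1 replicate 2. Hdac3, which encodes a histone deacetylase and lies just behind Diaph1, scored 56 and 53 in mito, 29 and 42 in LM, and 57 in eG1-1 replicate 2. The read-through genes Gm37013 and Gm38666 had end peaks in all 6 lists and Gm38667 in 5, but these ends coincide with alpha starts or the gamma end.

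Calls between stages counted a region or a start where both lists of 1 stage and neither list of the other held it. They carry no test, because the smallest exact p for 2 lists against 2 is 0.333. In eG1-1 and not in mito there were 6 of 71 cluster regions, or 8.45%, near the 8.07% of all regions so called, and in mito and not in eG1-1 there were 0, against 1.85% of all regions. Of the 6, 3 lay at the starts of Pcdha4, Pcdhb1 and Pcdhga10. The others lay 6246 bp after the start of Pcdhga12, at −5388 bp from that of Pcdhgc3 and 3160.5 bp after that of Pcdhgc5. In LM and not in mito there were 0 (0.905% of all regions), and in mito and not in LM 3 (3.56%). In eG1-1 and not in LM there were 9, or 12.7%, against 9.38% of all regions, and in LM and not in eG1-1 there was 1 (0.459%). With at most 9 regions per call, only the calls that favour eG1-1 hold enough regions to read, and their shares are near those of all regions.

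Counted by member, start peaks were in eG1-1 and not in mito at Pcdha4, Pcdha5, Pcdha10, Pcdhb1 and Pcdhga10, which is 5 of 57 or 8.77%, against 1.3% of genes on other chromosomes. At equal list length no alpha gene had a start peak in eG1-1 and beta genes had 1 and 0, so the alpha and beta calls were lost. That cut falls hardest on the eG1-1 lists and spares LM replicate 2, so these losses do not separate stage from list length. Pcdhga10, at 36 in eG1-1 replicate 1, was not among the 7 gamma genes left in that list, so its call was lost too. The reverse held 0 members, against 2% of those genes. In eG1-1 and not in LM were 8 members, or 14.04%, against 2.04%. They were the same 5 with Pcdhgb1, Pcdhga6 and Pcdhgb4. At equal list length Pcdhgb1 (32) and Pcdhga6 (27) also lost their start peak in eG1-1 replicate 1. Of these 8 calls only that of Pcdhgb4 stayed. In mito and not in LM were Pcdhga6 and Pcdhgb4, 2 of 57 or 3.51%, against 2.09%. LM and not mito held 0 members (0.354%), and LM and not eG1-1 held 0 (0.4%). Over all members, start peaks numbered 9 and 19 in mito, then 9 and 8 in LM and 20 and 30 in eG1-1, and their slope was 5.5 per step (exact permutation p = 0.289, adjusted p = 0.467). Without eG1-1 replicate 2 it was 1.79, and without mito replicate 2 it was 9.21. The direction turned at equal list length, to a slope of −0.75 (exact p = 0.733).

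**Figure D5:**
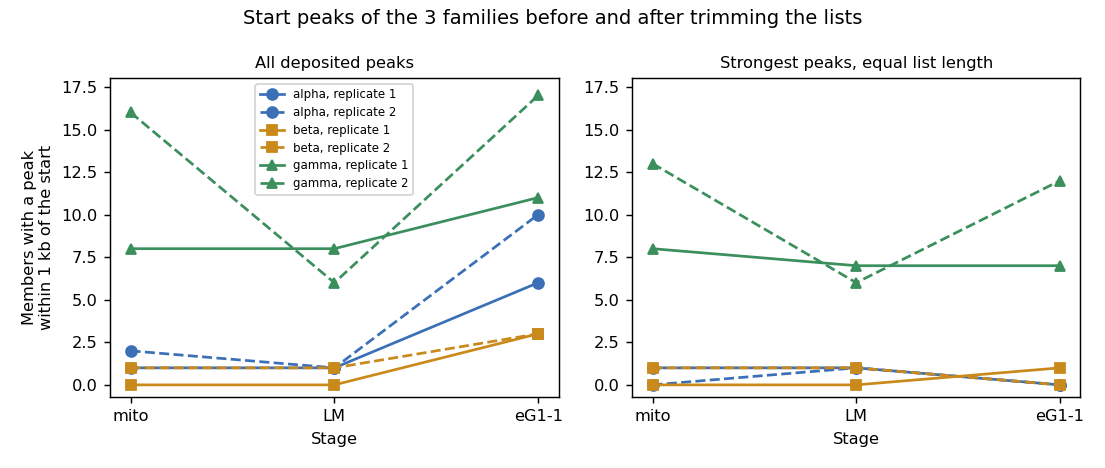
Members with a peak within 1 kb of the start (y axis) at each stage for the alpha, beta and gamma families, from all deposited peaks on the left and from the 20639 strongest peaks of each list on the right; solid lines join replicate 1 lists and dashed lines replicate 2 lists. In eG1-1 the alpha counts are 6 and 10 on the left and 0 and 0 on the right, while gamma counts are 11 and 17 and then 7 and 12.

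Genes that act on the cluster were read at either end of the gene. Of 20 architecture and silencing genes, 13 and 10 had a peak in mito, then 10 and 6 in LM and 5 and 13 in eG1-1. Mau2, which helps load cohesin, scored at least 158 in every list, Zfp143, a zinc finger factor found at CTCF sites, at least 119, and the cohesin core genes Smc1a and Smc3 at least 70 and 63. In contrast, 4 of the 20 had no peak in any list, namely Rad21, also of cohesin, Nipbl, Dnmt3a and Dnmt1. Ctcf scored 50 and 193 in mito, 52 and 28 in LM and 41 in eG1-1 replicate 2. Smchd1, which takes part in silencing the cluster in mouse, was held in mito (38 and 104) and not in eG1-1, 1 of 20 genes against 1.97% of all protein-coding genes. Rest, a repressor of neuronal genes, was held in mito (37 and 75) and not in LM, against 2.17%. None of these 20 genes was held in eG1-1 and not in mito, against 1.61% of all protein-coding genes, or in eG1-1 and not in LM, against 2.35%.

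Of 9 genes for partners of the proteins, 8 and 8 had a peak in mito, then 8 and 6 in LM and 5 and 6 in eG1-1. Adam10, a protease that sheds cadherins, scored at least 82 in every list, and the WAVE complex genes Wasf1, Abi1 and Cyfip1 at least 94, 80 and 47. Ptk2, the focal adhesion kinase gene, had no peak in eG1-1 but scored 45 and 56 in LM, a call that 0.48% of all genes shared, and 63 and 91 in mito.

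Protocadherin genes outside the cluster were also read at either end. Of 12, 3 and 5 had one in mito, then 5 and 2 in LM and 3 and 8 in eG1-1. Pcdh17 was held by all 6 lists, with 189 and 64 in mito, then 90 and 113 in LM and 93 and 128 in eG1-1. Pcdh1, which also lies on chromosome 18, was held by the mito lists alone, at 74 and 31, and so not in eG1-1 (1.97% of all genes) or LM (2.17%). Pcdh8 had 113 in eG1-1 replicate 2, and was held in LM (48 and 38) and not in mito, against 0.356% of all genes.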

How the data were processed

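Per the peak names in the deposited lists, the authors called peaks per sample on paired-end fragments, and replicates were not pooled. The submitters' processing notes list bedtools, deepTools 3.5.1, MACS2 2.2.4, Picard, SAMtools 1.10 and STAR 2.7.0e, and the builds mm10 and GRCm38, without roles. No source used here gives the caller's threshold or any shift of read ends for Tn5. Each deposited list gives a score per peak, a whole number of at least 13 whose scaling is not stated. The lists hold no counts, so depth and counting intervals are unknown.

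Gene ends came from a RefSeq gene table of GRCm38.p6 (mm10), and transcription starts of genes on other chromosomes from a RefSeq promoter table of that assembly. A peak was placed by its centre, and one between 2 families went to the nearer. Peaks that overlapped by at least 1 bp were merged. Trends used an exact permutation test of the slope, and differences within lists an exact sign-flip test, with Benjamini-Hochberg adjustment. Code ran in Python 3.11.15 with pandas 2.3.3 and NumPy 2.4.6 and was tested on made-up lists with known answers.

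Replicate numbers match the code in the peak names that was taken to be a sequencing run, and so pair the lists. Deviations of same-numbered lists over 65324 regions had correlations of 0.0328 between LM and mito, 0.0324 between eG1-1 and mito, and 0.0141 between eG1-1 and LM.

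Members and gene lists were chosen with earlier results of these data known. Named genes were all members with a start peak, other genes of the window with an end peak, and list genes held by both lists of 1 stage and neither of another or, up to 4 a list, by all 6 lists. Ctcf, the genes without a peak and regions away from starts were named after their values were seen. Comparisons between families, and their alternatives, were added after the counts had been seen. No sequence of the cluster is printed.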

Additional observations from a re-analysis of the deposited data

How the results depend on the processing

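Depth is unknown, so a missing peak may be one that was too weak to call, and the length of the lists limits every count. With permutation within the presumed run (replicate block) no slope passed either, for example 9.25 peaks within the cluster per step (exact p = 0.278, smallest possible 0.0556). Flanks of 50 and 200 kb, placing peaks by overlap, merging within 100 bp and a start window of 500 bp moved no result past a threshold or by over 1.5 times. At a score of at least 50 the difference from the Hox clusters turned to 1.55 peaks per Mb, regions in LM and not mito numbered 1, in eG1-1 and not LM 4 and in LM and not eG1-1 0, beta minus alpha was −1.62 percentage points, and alpha and beta genes with a start peak numbered 2 and 1. At equal list length the slopes of the beta part and of member start peaks turned to −0.5 and −0.75, regions in eG1-1 and not mito numbered 2, in LM and not mito 1 and in eG1-1 and not LM 2, beta minus alpha was −1.30 points, and alpha and beta genes with a start peak numbered 3 and 2. With a start window of 2 kb, beta minus alpha was −9.09 points and 13 beta genes had a start peak, since that window takes in inner regions.

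Leaving out 1 list leaves 32 sign flips and a smallest p of 0.0625, so no difference within lists can then pass. The slope of the gamma part ranged from −0.5, without eG1-1 replicate 2, to 6.21, without mito replicate 2. Over the lists left out, the difference from the rest of the genome ranged from 16.6 to 23.5 peaks per Mb. Gamma minus alpha ranged from 20.5 to 31.0 points and 56.2 to 68.4 peaks per Mb, gamma minus beta from 41.3 to 50.8 points and 54.5 to 64.3 peaks per Mb, and beta minus alpha from −22.2 to −11.2 points. Regions numbered 8 to 26 in eG1-1 and not mito, 0 to 6 in mito and not eG1-1, 1 to 4 in LM and not mito, 5 to 14 in mito and not LM, 11 to 34 in eG1-1 and not LM and 1 to 2 in LM and not eG1-1, since 1 list then stands for a stage. Where no reason is given, the cause of a change was not tested.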
